A study of Drosophila melanogaster with 6 samples.

Results

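The nuclear genes of oxidative phosphorylation were followed in Drosophila S2-DRSC cells treated with JQ1. They were taken by FlyBase symbol, as genes whose symbol starts with ND-, UQCR-, Sdh or ATPsyn, or with COX followed by a digit, and were split by respiratory complex. The symbol rule gave 88 genes, of which 84 were listed among the 14869 genes of the count files (ND-30, COX8 and the paralogues COX7CL and UQCR-6.4L were not matched). Of the 84 listed genes, 61 encode subunits, 22 are paralogues whose symbol ends in L and 1 (Sdhaf3) encodes an assembly factor. A mean of at least 10 scaled counts was reached by 65 of them, namely 60 subunits, 4 paralogues and Sdhaf3, out of 8690 genes in the whole series. By complex, the 65 tested genes were 34 of complex I, 5 of complex II, 5 of complex III, 8 of complex IV and 13 of complex V.

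Oxidative phosphorylation takes place in the inner mitochondrial membrane. Complexes I and II pass electrons from NADH and succinate to ubiquinone, complex III passes them on to cytochrome c and complex IV to oxygen, and the proton gradient built along the way drives ATP production by complex V, the ATP synthase. Most subunits are encoded in the nucleus and imported, while a few core subunits of complexes I, III, IV and V are encoded by the mitochondrial genome, so both genomes feed the same machines. Complex II is the exception, since all of its subunits are nuclear, and it is also an enzyme of the TCA cycle.

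JQ1 blocks the bromodomains with which BET proteins hold on to acetylated histones, and the only BET protein of the fly is FSH, the product of fs(1)h. The experiment asked how gene expression responds when FSH is displaced from chromatin. S2-DRSC is a cultured line of embryonic origin with features of plasmatocytes, the phagocytic blood cells of the fly. The cells received JQ1 at 10 µM for 1, 2, 4 or 20 h, or its solvent DMSO for 1 or 20 h, which gave a JQ1 group of 4 libraries and a DMSO group of 2 libraries of RNA-seq. Each treatment and time had 1 library, so that a single time has no replicate check and the spread within the JQ1 group includes changes with time. Nothing in the labels says that the libraries came from separate cultures, and the p-values measure only the spread between these 6 libraries.

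Between 24547077 and 29823608 reads per library were assigned to genes. All 8 plasmatocyte markers examined were above the filter, with summed levels of 606487 and 617072 scaled counts as the lowest and highest in DMSO and of 580931 and 1060400 in JQ1. Of 9 markers of other cell types 7 were listed and 4 tested, and their summed level was 646 to 648 scaled counts in DMSO and 308 to 467 in JQ1. Single markers went different ways. In the JQ1 library of 20 h the plasmatocyte markers Hml and NimC1 were at 976% and 483% of DMSO. Pxn and crq were at 65.7% and 59.2% there. Of the other markers the germline gene osk was at 607% in that library. The neuronal gene elav, which made up most of the summed level of the other markers in DMSO, was at 34.9%. The library of 20 h stood apart for Hml, NimC1, Pxn and osk, which were at 247%, 60.1%, 92.0% and 175% at 4 h. The losses of crq and elav were not particular to it, since at 4 h they were at 37.2% and 40.2%. The part of these shifts in the results below was not tested, and in bulk RNA a change in cell number of one kind and a change in RNA per cell cannot be told apart. A scaled count is a raw read count divided by a library factor taken from the 100 genes most abundant in DMSO, none of which was a gene of oxidative phosphorylation. On this scale the median of all tested genes was shifted by -0.54, -0.65, -0.81 and -0.59 (log2) at 1, 2, 4 and 20 h of JQ1, whereas DESeq2 factors over all genes bring the same medians to 0.01, -0.01, -0.03 and -0.04. The changes below are therefore given on the scale of the index genes and, for the members as a whole, the complexes and most of the lists, also relative to other genes.

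The genes of oxidative phosphorylation were slightly lower after JQ1 on the index scale, and they were higher relative to genes of like abundance until 4 h but not at 20 h. Against the mean of both DMSO libraries, the 65 genes had a median log2 change of -0.13, -0.18, -0.29 and -0.46 at 1, 2, 4 and 20 h. The median gene thus stood at 91.1%, 88.3%, 81.6% and 72.5% of its DMSO level. The DMSO library of 20 h set against that of 1 h gave a median of 0.05, and for the 60 subunits this difference lay between -0.10 and 0.32. Over all 65 genes it lay between -0.22 and 1.16, the highest being that of the weakly expressed paralogue ND-51L1. Large losses were few. Below 50% of DMSO were 2, 2, 4 and 5 of the 65 genes at 1, 2, 4 and 20 h, compared with 19.4%, 31.1%, 39.5% and 31.4% of all tested genes. Above 200% of DMSO was none of the 65 at any time, compared with 0.875%, 2.36%, 2% and 4.4% of all tested genes. The sign of the median depends on the scaling, because with TMM factors it was 0.40, 0.43, 0.42 and 0.02 and with DESeq2 factors 0.42, 0.46, 0.49 and 0.09 at the same 4 times.

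**Figure D1:**
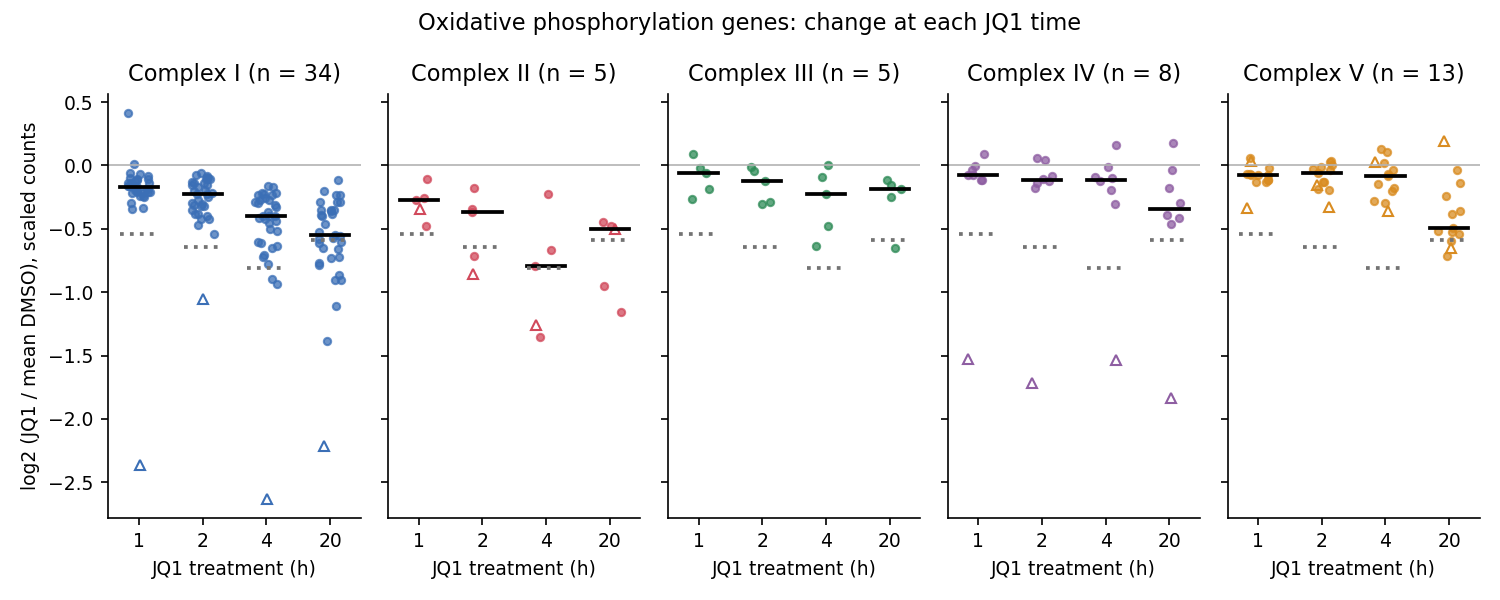
Each panel shows 1 complex, with the hours of JQ1 on the x axis and log2 of JQ1 over the mean of both DMSO libraries, in scaled counts, on the y axis. Filled circles are subunits, open triangles are paralogues and the assembly factor Sdhaf3, black bars are the medians of the complex and grey dotted bars the medians of all tested genes on the index scale. At 1 and 2 h the medians of every complex lie above those of all genes, and at 4 h complex II, at -0.79, lies next to the median of all genes, at -0.81. With TMM or DESeq2 factors all points would move up, and most medians of the complexes would lie above 0.

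For each gene the median log2 fold change of other genes in the same of 20 abundance bins was subtracted. The remaining difference had a median of 0.41, 0.48, 0.46 and -0.003 over the 65 genes after 1, 2, 4 and 20 h. Above the median of their bin were 62, 61, 59 and 32 of the 65 genes at the 4 times, where all tested genes gave 50.3%, 50.2%, 50.2% and 49.9%. The genes below their bin at 1 h were SdhA and the paralogues ND-51L1 and COX5BL, and at 2 h ATPsyngamma joined them. At 4 h SdhB and UQCR-C1 were below as well. DMSO 20 h against DMSO 1 h, treated in the same manner, gave a median of -0.01. These differences hardly depended on the scaling of the libraries.

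**Figure D2:**
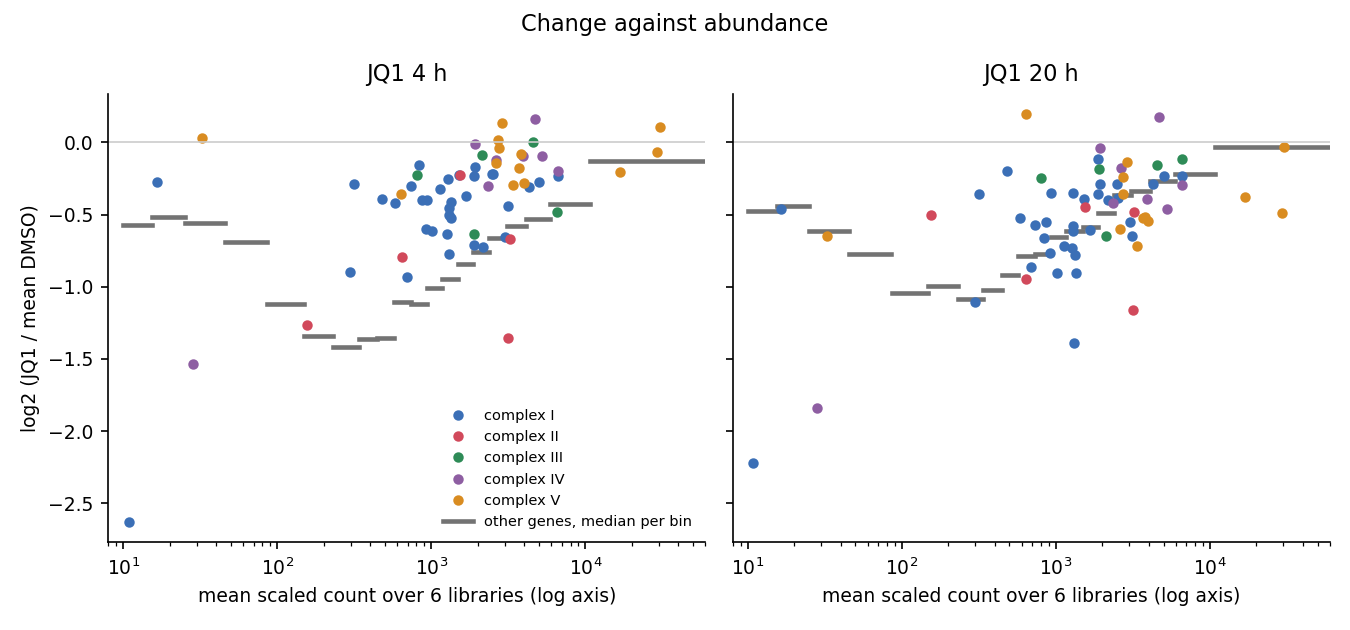
The x axis is the mean scaled count over the 6 libraries on a log axis, and the y axis is log2 of JQ1 at 4 h (left) or 20 h (right) over the mean of DMSO. Coloured points are the 65 genes by complex and grey bars are the medians of all other tested genes in 20 bins of abundance. At 4 h 59 of the 65 points lie above the bar of their bin, and at 20 h 32 do.

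Genes of oxidative phosphorylation are short, and length moved with the result. Their exonic length had a median of 853 bases, against 2046 for all tested genes with a known length. When bins were made separately for genes of up to 1 kb and for longer genes, which was added after seeing the data, the medians of the 65 genes became 0.15, 0.21, 0.23 and -0.20 at 1, 2, 4 and 20 h. Most of that shift came from the 42 genes of up to 1 kb. Compared with 1124 other genes of the same length class, they had medians of 0.11, 0.18, 0.20 and -0.26, instead of 0.43, 0.53, 0.49 and 0.01 against genes of all lengths. The 23 longer genes, set against 6798 other long genes, had medians of 0.29, 0.28, 0.25 and -0.03, close to their 0.27, 0.24, 0.22 and -0.02 against genes of all lengths. Above their bin within the length class were 39 of 42 short and 21 of 23 long genes at 1 h, and 10 of 42 and 10 of 23 at 20 h. At 20 h the short members were thus mostly lower than other short genes of like abundance.

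**Figure D3:**
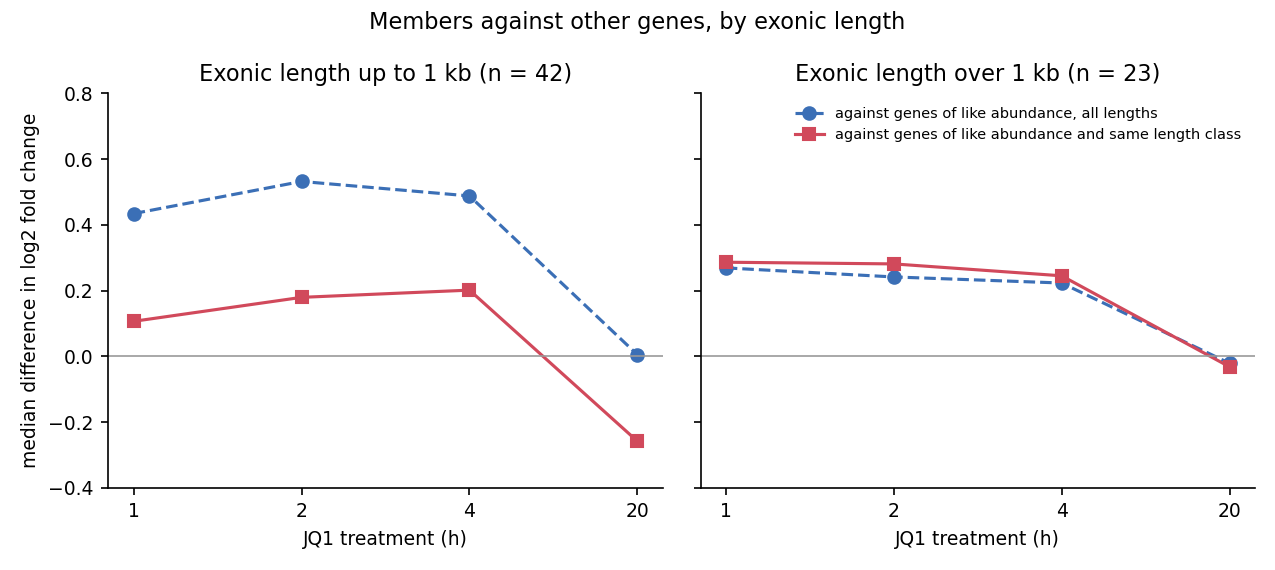
The x axis gives the hours of JQ1 and the y axis the median difference between the log2 fold change of a gene of oxidative phosphorylation and that of other genes of like abundance. Blue circles compare with genes of all lengths and red squares with genes of the same length class, for the 42 genes of up to 1 kb (left) and the 23 longer genes (right). For short genes the red line lies at 0.20 at 4 h and at -0.26 at 20 h, below the blue line at every time, while for longer genes the lines nearly coincide.

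Over all 6 libraries, edgeR's quasi-likelihood test with Benjamini-Hochberg adjustment over all genes called 6 of the 65 genes lower in JQ1 (9.23%) and none higher. Over all tested genes, 44.3% were called lower and 1.43% higher. In the abundance bins that hold the 65 genes, weighted by their number in each bin, 48.2% of other genes were called lower. By length alone, 2 of the 42 members of up to 1 kb were called lower, against 29.1% of other genes of that length. Among the 23 longer members it was 4, against 47.5% of other longer genes. At an unadjusted p under 0.05, 10 of the 65 (all genes: 53.7%) were lower and 0 (all genes: 2.06%) higher, and the Wald test of DESeq2 called 8 (all genes: 49.9%) lower and 0 (all genes: 1.9%) higher. The called genes were SdhA, SdhB, ND-51 and ND-23 among subunits and the weakly expressed paralogues COX5BL and ND-51L1. The count depended on single libraries, and so did that over all genes. Without the DMSO library of 1 or of 20 h edgeR called 0 of the 65 and 0 of all 8690 genes, while 4 and 1 of the 65 were lower at an unadjusted p under 0.05, as were 36.1% and 32.1% of all genes. Without the JQ1 library of 1, 2, 4 or 20 h, 8, 2, 2 and 16 of the 65 were called lower, where the shares over all genes were 44.7%, 25.3%, 30.6% and 64.3%. TMM factors gave 1 lower and 5 higher members against 6.51% and 5.02% of all genes, and DESeq2 factors in edgeR 1 lower and 7 higher against 5.55% and 5.3%.

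In 51 of the 65 genes (78.5%) all 4 JQ1 libraries lay below both DMSO libraries, and in none did all 4 lie above. Over all tested genes the shares were 67.9% and 3.74%. The separation was most frequent in complex I, with 32 of 34 genes, and in complex II, with 5 of 5. It was found in 2 of 5 genes of complex III, 6 of 8 of complex IV and 6 of 13 of complex V. This count belongs to the index scale, as only 1 of the 65 lay below and 28 above with TMM factors, which gave shares of 29.7% and 22.8% over all genes.

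Complex I (NADH dehydrogenase), with 33 subunits and the paralogue ND-51L1 tested, had medians of -0.17, -0.22, -0.40 and -0.55 (log2 fold change) at 1, 2, 4 and 20 h on the index scale. Relative to genes of like abundance the medians were 0.45, 0.57, 0.46 and 0.00. All 4 JQ1 libraries lay below both DMSO libraries in 32 of its 34 genes when scaled on the index, as they did in 67.9% of all tested genes. ND-51 and ND-23 were the only subunits of the complex called lower, where 44.3% of all tested genes were. ND-51 (FBgn0031771), the subunit that holds the FMN where NADH gives up its electrons, had 3635 and 3817 scaled counts in DMSO at 1 and 20 h and 2956, 2774, 2367 and 2545 with JQ1 at 1, 2, 4 and 20 h. Its log2 fold change was -0.49 ± 0.14 (SE), with an adjusted p of 0.0275. ND-23 (FBgn0017567), which carries iron-sulphur clusters on the way to ubiquinone, had 2270 and 2363 scaled counts in DMSO and 1821, 1590, 1415 and 1811 with JQ1, and fell by 0.48 ± 0.16 (SE) on the log2 scale at an adjusted p of 0.0415. In both genes the groups did not overlap, and the lowest library was that of 4 h. Both calls were lost on a scale of total counts, of 500 index genes or of the mitochondrial genome, and the fitted change of both turned positive with TMM or DESeq2 factors (0.10 and 0.15 for ND-51). Without the DMSO library of 1 h or of 20 h, or the JQ1 library of 2 h or of 4 h, the adjusted p was 0.134, 0.191, 0.0658 and 0.058 for ND-51 and 0.173, 0.23, 0.103 and 0.0768 for ND-23.

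The modules of complex I had similar medians at 1 and 2 h. The N module, which oxidises NADH, had medians of -0.16, -0.21, -0.31 and -0.55 over 7 genes, and 1 of them was called. In the Q module, which reduces ubiquinone, the medians were -0.20, -0.23, -0.42 and -0.36 over 7 tested of 8 genes, again with 1 called. The 19 genes of the membrane arm, which takes part in proton pumping, had medians of -0.17, -0.22, -0.40 and -0.58. None of the 19 was called and 3 had an unadjusted p under 0.05, although all 19 had 4 JQ1 libraries below both DMSO libraries on the index scale. Over all tested genes, 44.3% were called lower, 53.7% were lower at an unadjusted p under 0.05, and 67.9% were separated in this way. ND-49, a core subunit of the Q module whose gene lies on chromosome 4, was nearly level over the treatment, with 7256 and 7343 scaled counts in DMSO and 6368, 6343, 6205 and 6204 with JQ1 (adjusted p of 0.116). ND-75, the largest iron-sulphur subunit, had 4747 and 4799 in DMSO and 4260, 4113, 3853 and 3904 with JQ1 (adjusted p of 0.115). The late decline was steepest in ND-13B, an accessory subunit, which had 1730 and 1721 scaled counts in DMSO and 1452, 1246, 1008 and 659 with JQ1. It stood at 38.2% of DMSO at 20 h, yet was not called (adjusted p of 0.106), the libraries of the JQ1 group being far apart. ND-24, a core subunit with an iron-sulphur cluster, had 1610 and 1627 in DMSO and 1417, 1363, 1213 and 865 with JQ1. ND-20, the core subunit with the last cluster before ubiquinone, had 2039 and 2088 in DMSO and 1983, 1927, 1831 and 1691 with JQ1. Relative to its bin, ND-MWFE, a small subunit of the membrane arm, was the highest of the complex (median over the 4 times of 0.92). It had 336 and 361 scaled counts in DMSO and 325, 318, 285 and 272 with JQ1, in a range of abundance where other genes lost the most. In the newer annotation 35.0% of its exon bases overlap other genes, namely Nrk on the same strand (15.2%) and TppII on the other strand (19.8%). The part of this overlap in its counts was not tested.

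**Figure D4:**
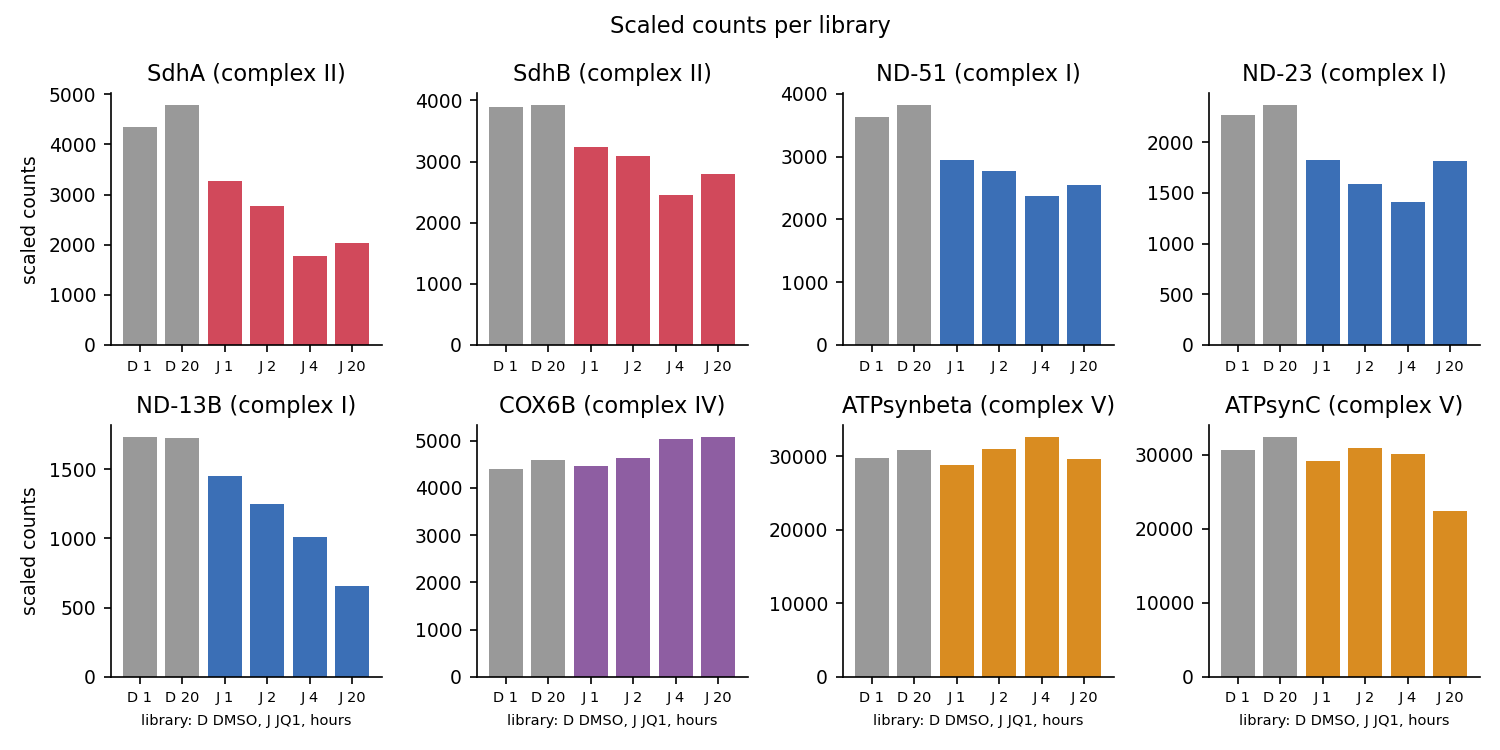
Bars give the scaled counts of 8 genes in each library, grey for DMSO (D) and coloured for JQ1 (J), with the hours of treatment on the x axis and every y axis starting at 0. SdhA, SdhB, ND-51 and ND-23 were the 4 subunits called lower on the index scale; ND-13B is lowest at 20 h, with 659, COX6B stays between 4397 and 5070, and ATPsynC drops only in the JQ1 library of 20 h, to 22445.

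Complex II (succinate dehydrogenase) had the lowest medians at 1, 2 and 4 h, at -0.27, -0.36 and -0.79, with -0.50 at 20 h. Relative to genes of like abundance the medians over its 5 genes were 0.40, 0.22, 0.08 and -0.15. SdhA and SdhB were called lower, which is 40% of the 5 genes, where 44.3% of all tested genes were called lower. The other 3 genes were not called, although the fitted log2 change of the anchor SdhD, -0.56, was larger in size than that of SdhB. SdhA (FBgn0261439), the flavoprotein that oxidises succinate, had 4339 and 4776 scaled counts in DMSO and 3272, 2770, 1780 and 2039 with JQ1. The group means were 4558 ± 309 (SD, n = 2) and 2465 ± 682 (SD, n = 4), and edgeR fitted a change of -0.89 ± 0.25 on the log2 scale (SE), adjusted p of 0.0275. SdhA was below the median of its abundance bin at every time, with differences of -0.03, -0.22, -0.78 and -0.83, and its fitted change was negative under every scaling tried, from -0.26 to -0.89. The call itself was lost under 5 of these scalings, with adjusted p-values from 0.0638 to 0.428, without the DMSO library of 1 h (0.109) or of 20 h (0.159), and without the JQ1 library of 2 h (0.0549). SdhB (FBgn0014028), the iron-sulphur subunit, had 3891 and 3918 scaled counts in DMSO and 3236, 3084, 2460 and 2797 with JQ1, with a log2 fold change of -0.43 ± 0.15 (SE) and an adjusted p of 0.0481. Its fitted change was 0.15 with TMM and 0.20 with DESeq2 factors, and its adjusted p was 0.202 and 0.228 without the DMSO library of 1 h or of 20 h, and 0.0871 and 0.0857 without the JQ1 library of 2 h or of 4 h. The anchors bind ubiquinone in the membrane. SdhC had 1673 and 1746 scaled counts in DMSO and 1584, 1510, 1461 and 1251 with JQ1, and was the highest of the complex relative to its bin (0.51). SdhD had 782 and 859 in DMSO and 687, 637, 473 and 425 with JQ1, at an adjusted p of 0.0967. Sdhaf3, an assembly factor of the complex, was at its lowest at 4 h, with 213 and 205 scaled counts in DMSO and 164, 115, 86.5 and 147 with JQ1 (adjusted p of 0.0941).

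Complex III (ubiquinol-cytochrome c reductase) had medians of -0.06, -0.12, -0.23 and -0.19 over 5 subunits. Relative to genes of like abundance the medians were 0.37, 0.42, 0.53 and 0.11. None of the 5 was called or had an unadjusted p under 0.05 in edgeR. Over all tested genes 44.3% were called lower, and 53.7% were lower at that unadjusted p. The core protein UQCR-C2 differed little between the groups, with 4625 and 4736 scaled counts in DMSO and 4479, 4532, 4680 and 4204 with JQ1. Its fitted change was -0.07 on the index scale and positive with DESeq2 factors, where it was called higher (adjusted p of 0.0477). Its partner UQCR-C1 went from 7521 and 7239 in DMSO through 6500, 6052 and 5284 at 1, 2 and 4 h back to 6806 at 20 h, and was the lowest of the complex relative to its bin (0.08). UQCR-6.4 was the highest relative to its bin (0.82), with 841 and 878 scaled counts in DMSO and 847, 791, 735 and 723 with JQ1. In the newer annotation 40.5% of its exon bases overlap POSH on the other strand, and POSH fell by 0.82 on the log2 scale (adjusted p of 0.00759). UQCR-14 was listed at 0 in all 6 libraries. All of its exon bases overlap CG32576 on the other strand, which had 821 to 1098 scaled counts, and whether strand was used in counting is not given in the sources used here.

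Complex IV (cytochrome c oxidase) stayed near its DMSO level until 4 h. Its medians were -0.08, -0.11 and -0.11 at 1, 2 and 4 h and -0.34 at 20 h, and 0.39, 0.44, 0.47 and 0.01 relative to genes of like abundance. No subunit was called, and the only called gene of the complex was the paralogue COX5BL, where 44.3% of all tested genes were called lower. COX4, a subunit that contacts the mitochondrially encoded core, was the lowest relative to its bin (0.22), with 7057 and 7358 scaled counts in DMSO and 6654, 6553, 6290 and 5877 with JQ1. COX5A had 5813 and 5536 in DMSO and 5390, 5214, 5304 and 4112 with JQ1, so that the library of 20 h stood apart. COX5B, which binds zinc, had 2530 and 2690 in DMSO and 2472, 2302, 2118 and 1955 with JQ1. COX6B and COX7C were the subunits whose groups overlapped. COX7C had 1843 and 1968 scaled counts in DMSO and 2032, 1988, 1886 and 1858 with JQ1 and was the highest relative to its bin (0.69). For COX6B, singled out after its values were seen because it had the most positive fitted change of the 65 genes, the values were 4397 and 4585 in DMSO and 4471, 4627, 5024 and 5070 with JQ1, and the fitted change was 0.10 ± 0.12 on the log2 scale (SE, adjusted p of 0.52).

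Complex V (ATP synthase) held the most abundant members and had medians close to 0 up to 4 h, of -0.07, -0.06 and -0.08 at 1, 2 and 4 h on the index scale and of 0.39, 0.44 and 0.49 relative to genes of like abundance. At 20 h the median was -0.49, or -0.18 relative to genes of like abundance. None of its 13 genes was called, and none had an unadjusted p under 0.05 in edgeR. Over all tested genes 44.3% were called lower, and 53.7% were lower at that unadjusted p. The catalytic subunit ATPsynbeta, encoded on chromosome 4, had 29834 and 30832 scaled counts in DMSO and 28877, 31015, 32606 and 29605 with JQ1, the groups overlapping throughout. The ring subunit ATPsynC, which turns as protons pass, had 30694 and 32384 in DMSO and 29140, 30896 and 30068 at 1, 2 and 4 h, but 22445 at 20 h. ATPsyngamma, the rotating central stalk, had 18260 and 18681 in DMSO and 16837, 16900, 16043 and 14175 with JQ1, and was the lowest of the complex relative to its bin (-0.05). ATPsynO, part of the peripheral stalk that holds the head still, was at 4028 and 4013 in DMSO and at 3822, 3928, 3561 and 2793 with JQ1. ATPsynCF6, another stalk subunit, served the study as the reference gene when it measured the lipopolysaccharide-induced transcripts CecA1 and CecB by qPCR. It had 4450 and 4553 scaled counts in DMSO and 4102, 3946, 3700 and 3088 with JQ1, the fitted change being -0.28 ± 0.15 on the log2 scale (SE, adjusted p of 0.154), and all 4 JQ1 libraries lay below both DMSO libraries on the index scale. The head and central stalk had medians of -0.07, -0.01, -0.11 and -0.36 over 5 genes (bellwether and stunted included, which lie outside the symbol rule), and the membrane part with the peripheral stalk -0.07, -0.05, -0.08 and -0.51 over 8.

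Most genes of oxidative phosphorylation were lower at 20 h than at 4 h of JQ1 on the index scale, where the median of all tested genes was higher. At 20 h 48 of the 65 genes were lower than at 4 h, where 33.7% of all tested genes were, with a median log2 difference of -0.15 against 0.24 for all tested genes. Relative to genes of like abundance the median difference was -0.42, and 58 of the 65 lay below their bin. In complex V 12 of 13 genes were lower at 20 h, with a median of -0.35, the exception being the paralogue ATPsynbetaL. For complexes I, II, III and IV the medians were -0.11, 0.18, -0.02 and -0.11. The members that were higher at 20 h than at 4 h included UQCR-C1, ND-23 and Sdhaf3, with differences of 0.37, 0.36 and 0.76. The lowest of the 4 JQ1 libraries was that of 20 h in 47 of the 65 genes and that of 4 h in 16, compared with 28.6% and 36.5% of all tested genes. Each of these differences rests on 1 library per time. With total counts, TMM or DESeq2 factors the median of all tested genes was near 0 (-0.03, 0.02 and 0.01) and that of the 65 genes was -0.42, -0.37 and -0.38. With mitochondrially encoded genes as the scale the median of the 65 genes was 0.03, with 26 of them lower against 23.9% of all genes, and complex V was at -0.17 with 10 of 13 genes lower. The difference relative to genes of like abundance lay between -0.42 and -0.40 on every scale tried.

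**Figure D5:**
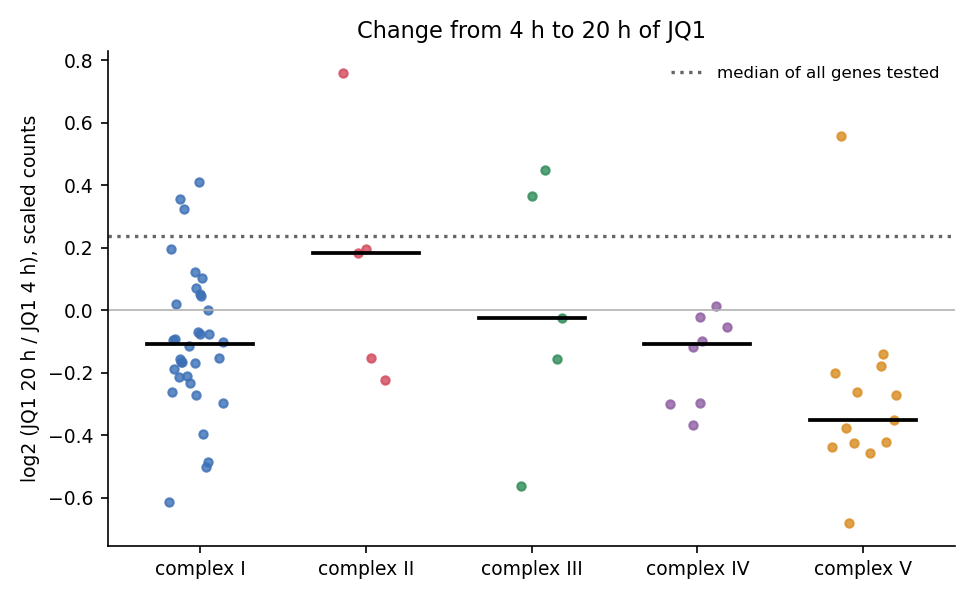
The y axis is log2 of the scaled count with JQ1 at 20 h over that at 4 h for each of the 65 genes, grouped by complex on the x axis, with black bars at the medians and a dotted line at the median of all tested genes (0.24). The median of complex V is -0.35 and only 1 of its 13 points lies above 0; scaled on mitochondrially encoded genes it is -0.17, and the median of all 65 genes turns to 0.03.

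Most of the paralogues, many of which are known in the fly for expression in the testis, were close to silent in these cells. Of the 22 listed, 18 were below the filter, none of which had more than 11 reads in a library, and 4 of these had no read at all. The other 4 passed the filter. COX5BL (FBgn0031831) had 46.7 and 58.4 scaled counts in DMSO and 17.6, 15.3 and 17.5 at 1, 2 and 4 h of JQ1, the lowest level being that of 20 h. Its fitted change of -1.70 ± 0.25 on the log2 scale (SE) had an adjusted p of 0.00591, or of 0.0644 and 0.0838 without the DMSO library of 1 h or of 20 h. All of its exon bases overlap Trmt6 on the other strand in the newer annotation. Trmt6, a gene named for tRNA methylation, fell as well, from 821 and 879 scaled counts in DMSO to 373, 282, 310 and 386 with JQ1 (log2 fold change of -1.33, adjusted p of 0.00621). Reads of the one and the other cannot be told apart where strand was not used. ND-51L1 (FBgn0034251) had 13.4 and 31.2 scaled counts in DMSO and 3.51, 10.2, 2.76 and 4.00 with JQ1, and edgeR fitted -2.06 ± 0.58 on the log2 scale (SE, adjusted p of 0.0273). It had 3 to 24 reads per library, and counting error alone gave its log2 value at 4 h an SE of 0.87. Its call was lost without the JQ1 library of 1 h (adjusted p of 0.0534) or of 4 h (0.0659) and without the DMSO library of 1 h (0.071) or of 20 h (0.231). ATPsynbetaL was the best expressed paralogue, with 671 and 717 scaled counts in DMSO and 548, 553 and 540 at 1, 2 and 4 h, followed by 795 at 20 h. It was the highest of complex V relative to its bin (0.70) and was not called (adjusted p of 0.501). ATPsynepsilonL had 35.1 ± 3.81 scaled counts (SD, n = 2) in DMSO and 31.3 ± 6.58 (SD, n = 4) with JQ1. Symbols ending in L were treated as paralogues even where the parent gene has another name, which concerns COX6AL, COX6AL2, COX6CL and ATPsynepsilonL.

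Levels in DMSO, compared between genes as scaled counts per kb of exon, spanned a wide range. ATPsynC had the highest level at 16884 per kb, followed by ATPsynbeta at 12713 and ATPsyngamma at 12651. COX5A, at 7128, and COX7B, at 6635, came next. The medians were 4686 per kb for 11 subunits of complex V and 5855 for 7 of complex IV, 2310 for 5 of complex III, 1772 for 4 of complex II and 1716 for 33 of complex I. ATPsynbeta and ATPsyngamma did not differ beyond the spread of the DMSO libraries (12504 and 12922 against 12507 and 12795 per kb), nor did the ranges of complexes I and II separate. At the other end, ND-B8 had 36.7 scaled counts per kb, with 12 to 26 reads per library, whereas the next lowest subunits, ND-MWFE and ND-AGGG, had 413 and 511. The genes had no common location, with 13 on chromosome arm 2L, 12 on 2R, 12 on 3L, 15 on 3R, 11 on X and 2 on chromosome 4.

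Other genes of the pathway were examined as lists. The 7 tested respiratory subunits and carriers outside the symbol rule had medians of -0.09, -0.05, -0.11 and -0.38. Relative to genes of like abundance the medians were 0.47, 0.61, 0.62 and -0.09. None of the 7 was called. Among them the ATP synthase subunit bellwether (blw) had a mean of 24437 scaled counts in DMSO and 21867 with JQ1 (adjusted p of 0.248 in edgeR). The 8 tested mitochondrially encoded genes had medians of -0.10, 0.02, -0.18 and -0.35. Relative to genes of like abundance the medians were 0.33, 0.49, 0.42 and -0.11. None of the 8 was called and 0 had an unadjusted p under 0.05 in edgeR (all genes: 44.3% and 53.7% lower). They were uneven, and at 20 h they ranged from 16.7% of DMSO for mt:ND2 to 131% for mt:ATPase6. Their RNA is copied by another polymerase from another genome. The 10 tested assembly factors, of 27 on the list, had medians of -0.29, -0.48, -0.58 and -0.38. Relative to genes of like abundance the medians were 0.39, 0.36, 0.41 and 0.28. Sdhaf3, already described with complex II, is 1 of the 10. In 9 of them all 4 JQ1 libraries lay below both DMSO libraries on the index scale, and in 1, Coa8, above. The shares over all tested genes were 67.9% and 3.74%. Not called were Coa8, at 216% of DMSO at 20 h, and CIA30, at 15.5% at 4 h. Against 44.3% and 1.43% of all tested genes, 2 of the 10 were called lower and none higher. These were Cox11, a copper chaperone of complex IV, from 631 ± 71.9 (SD, n = 2) to 266 ± 77.2 (SD, n = 4) scaled counts with an adjusted p of 0.0154 in edgeR, and Surf1, which helps to build the same complex, from 505 ± 38.8 (SD, n = 2) to 162 ± 87.3 (SD, n = 4) with an adjusted p of 0.0351 in edgeR.

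A list of the TCA cycle also held the pyruvate dehydrogenase genes Pdha and Pdhb. Of its 10 tested genes 3 were called lower, namely Idh3b, ScsbetaA and Pdha, with log2 fold changes of -0.75, -0.63 and -0.50. The medians of the list were -0.34, -0.39, -0.61 and -0.43, or 0.17, 0.17, -0.03 and -0.18 relative to genes of like abundance. Among 6 tested regulators of mitochondrial biogenesis 5 were called lower and none higher. On the index scale the medians of -0.92, -1.12, -1.21 and -0.68 were below those of all genes at every time. Relative to genes of like abundance they were -0.28, -0.31, -0.39 and -0.01, with 1, 1, 2 and 3 of the 6 genes above their bin. Called were PolG1, the mitochondrial DNA polymerase (-1.93), TFAM, which packages mitochondrial DNA (-1.34), mtTFB2, a factor for its transcription (-1.35), srl, the fly PGC-1 homologue (-0.66), and Ets97D, the homologue of the mammalian factor GABPA (-0.71). The regulator not called was ewg (adjusted p of 0.243 in edgeR). PolG1 had 1659 and 1753 scaled counts in DMSO and 749, 471, 276 and 293 with JQ1. TFAM had 1638 and 1799 in DMSO and 1090, 686, 496 and 436 with JQ1. These lists were read against the background share of called genes, 44.3% lower, and were not tested as sets.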

How the data were processed

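RNA was measured in 6 libraries. The authors aligned reads with TopHat to BDGP5, using the gene models of an Ensembl release, and deposited raw read counts per gene made with HTSeq. The versions of TopHat and HTSeq are not given in the sources used here. Lines that name no gene, 21.9% to 27.3% of each library's records, were dropped. Symbols, strands and exonic lengths came by identifier from a newer annotation, which matched 91.0% of the 14869 listed and 91.9% of the 8690 tested genes, and no coordinates are given. Counts were divided by the median ratio over the 100 genes most abundant in DMSO, and genes averaging 10 or more scaled counts were tested with edgeR 4.0.16 in R 4.3.3 (quasi-likelihood test, two-sided, Benjamini-Hochberg adjustment over all tested genes, threshold of 0.05), 4 JQ1 against 2 DMSO libraries without covariates. Single times were compared as log2 of (JQ1 + 1) over (mean DMSO + 1), with no test, a pseudocount that makes changes of low genes look smaller. The test was tried on simulated counts first. The members and gene lists were chosen with earlier results of these data known. Named genes were ATPsynCF6, the core subunits, the lowest and highest of each complex relative to its bin with a mean of at least 50, genes beyond 2-fold at every time, and called genes of the lists. ND-13B and COX6B were named after their values were seen, as were Sdhaf3, ND-B8, UQCR-14, COX7B, ND-AGGG and ATPsynepsilonL. Alternatives were other scalings, filters, a pseudocount of 5, other numbers of bins, leaving out each library, treatment duration as a block, and DESeq2 1.42.0. Promoter sequences and GC content were not analysed here.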

Additional observations from a re-analysis of the deposited data

Results flagged for a closer look

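Each of the 26 named genes was checked for a JQ1 library far from the other 3, which chance gives in about 1 in 20 groups, and for opposite signs at 1 and 20 h against the DMSO library of the same duration. The JQ1 libraries differ in time, so a distant library is not a distant replicate. Of the 26 genes 3 had a distant library. COX5A was at 4112 scaled counts at 20 h, ATPsynbetaL was at 795 at 20 h, and ND-51L1, a gene of few reads, was at 10.2 at 2 h. In 3 genes the signs were opposite, which was not tested, since each difference rests on 1 pair of libraries. UQCR-6.4 had a log2 fold change of 0.01 at 1 h and -0.28 at 20 h, COX7C of 0.14 and -0.0833, and ATPsynbetaL of -0.29 and 0.15.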

How the results depend on the processing

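The 6 genes called lower by edgeR became 1 with TMM, DESeq2 factors, total counts or an index of 500 genes and 2 with mitochondrially encoded genes, and ranged from 0 to 16 when 1 library was left out. The genes called lower over the whole table went from 3853 to 565, 482, 1895, 2248 and 1520 in these 5 scalings, and ranged from 0 to 5586 without 1 library. Among the libraries of 1 and 20 h, edgeR called 0 genes lower with duration as a replicate block (3 at an unadjusted p under 0.05) and 0 without the block (4), and 0 of all genes in either fit (29.5% and 35.3% lower at an unadjusted p under 0.05). Called higher were 5 with TMM, 7 with DESeq2 factors and 1 (a gene below the filter) with no filter, instead of 0. The sign of the median log2 fold change was reversed with TMM (0.397, 0.428, 0.415 and 0.0193 at 1, 2, 4 and 20 h), DESeq2 factors (0.418, 0.461, 0.491 and 0.0856), total counts (0.18, 0.128 and 0.0574 at 1, 2 and 4 h) and an index of 500 genes (0.0891 and 0.0234 at 1 and 2 h). These follow from the shift of all genes between the scales. Reversed with TMM and DESeq2 factors were ND-51 (adjusted p of 0.596 and 0.408), ND-23 (0.58 and 0.399) and SdhB (0.431 and 0.285), and with DESeq2 factors UQCR-C2 (0.0477). The numbers of genes below 50% of DMSO, 2, 2, 4 and 5, became 4, 4, 7 and 9 without a filter and 0, 0, 2 and 3 with a minimum of 50, 1, 1, 0 and 1 with TMM and 0, 1, 0 and 1 with DESeq2 factors. At 2 h it was also 1 with total counts, an index of 500 genes, a pseudocount of 5 or without members that overlap another gene by over 10%, which gave 1 at 1 h too, and 1 to 2 without a DMSO library. At 20 h it was 8 when the index genes were summed and 3 with mitochondrially encoded genes. The difference from genes of like abundance kept its size under every scaling, but was 0.146, 0.212, 0.229 and -0.2 within length classes, and 0.44 at 2 h without a filter. The cause of these changes was not tested. Depth limits the paralogues, most of which had under 12 reads per library.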
